A study of Mus musculus with 5 samples.

Results

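The interferon regulatory factor (IRF) genes Irf1, Irf2, Irf3, Irf4, Irf5, Irf7, Irf8 and Irf9 were examined for sites where PU.1 binding was listed as stronger once PU.1 had been restored in leukaemia cells. These 8 genes, all found in the RefSeq table of GRCm38.p6, are 8 of 21631 genes that code for protein (chromosomes 1 to 19 and X). Every listed PU.1 site inside the gene span or within 100 kb of either end was taken as a site of that gene, which gave 33 of the 11111 sites of the study. Sites within 10 kb and within 50 kb were also counted separately.

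Chromatin immunoprecipitation and sequencing (ChIP-seq) of PU.1 had been carried out on AML-246, an acute myeloid leukaemia (AML) of the mouse that is p53-/- and carries shPU.1, a doxycycline-controlled hairpin RNA against PU.1 linked to GFP. Spleen cells came from leukaemic C57BL/6 recipients that had been given doxycycline (Dox) for 2 days, which switches the hairpin off (PU.1 High, 3 libraries), or were untreated, with the hairpin on (PU.1 Low, 2 libraries). Both groups share the p53-/- background and the single leukaemia AML-246, and the labels call the libraries of a group technical replicates, so no result extends to other leukaemias or separate mice. The deposited data are 1 list of peak summits whose name sets high against low, read here as sites stronger in PU.1 High cells than in PU.1 Low cells. Each summit has the authors' score on a −log10 scale, which says how surely a site stands out and is not a fold change. The sources used here do not say if it is based on p- or q-values. No expression was measured, so the cell type was not checked against markers. With no value per library, no spread between libraries and no test of treatment can be given, read depth is unknown, and the values below are descriptions of this list.

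IRF proteins are transcription factors that bind repeats of GAAA in interferon-stimulated response elements (ISRE). Irf3 and Irf7 switch on type I interferon genes after virus sensing, Irf9 joins STAT proteins below the interferon receptor, and Irf1 and Irf2 act on shared elements, often as activator and repressor. Irf5 drives inflammatory cytokine genes below Toll-like receptors. Irf4 and Irf8 bind DNA weakly alone and pair with PU.1 on composite elements in which an ETS core GGAA lies next to a GAAA repeat, and Irf8 is needed for monocytes and dendritic cells to form.

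Of the 8 genes, only Irf2 had a site in a promoter window, taken as 250 bases before to 50 after a RefSeq transcript start. Its summit on chromosome 8 at 46739523 lay 222 bp before the Irf2 start and had a score of 3.74, which 91.3% of all sites reached or exceeded. A site lay in 560 of the 21020 promoter windows of protein-coding genes (2.66%). The window at chr8:46739495-46739794 (plus strand) is shown because it is the one Irf promoter under a summit; capitals mark the ETS-IRF core GGAANNGAA and the ISRE core GAAANNGAA, which overlap.
Irf2 promoter: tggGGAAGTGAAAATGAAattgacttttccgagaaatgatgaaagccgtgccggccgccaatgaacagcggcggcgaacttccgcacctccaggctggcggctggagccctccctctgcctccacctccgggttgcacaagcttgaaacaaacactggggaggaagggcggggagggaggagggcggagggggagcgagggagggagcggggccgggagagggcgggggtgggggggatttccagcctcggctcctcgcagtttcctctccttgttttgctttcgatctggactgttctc

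The summit is base 29 of this window and stands inside a TTCC, the ETS core read on the other strand. The ETS-IRF core begins at base 4, and its last base lies 17 bp before the summit. The ISRE core begins at base 10, and its last base lies 11 bp before the summit. The same summit fell in the promoter window of Gm16675, a lncRNA gene on the opposite strand. It lay 0.008 kb before the Gm16675 start, closer than to the Irf2 start, so it cannot be given to Irf2 alone.

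All 11 promoter windows of the 8 genes were searched on both strands. The Irf2 window was the only one of the 11 with the ETS-IRF core and the only one with the ISRE core, against 7.60% and 8.08% of all 21020 windows. Among the 560 windows that hold a site, the ETS-IRF core was in 13.9% and the ISRE core in 11.6%. GGAA occurred in all 11 windows, as it did in 95.7% of all windows. GAGGAA, part of the longer PU.1 sequence, was found in 4 of the 11 windows (36.4%), those of Irf2, Irf4 and Irf9, against 27.2% of all windows. GAGGAAGT was in none of the 11 and in 3.15% of all. The STAT core TTCNNNGAA was in 3 of the 11 windows (27.3%), those of Irf1, Irf2 and Irf8, against 7.76% of all windows, and in Irf2 it overlaps the TTCC under the summit. The NF-kB core GGGANTTTC was in none of the 11 and in 1.09% of all. A match is a description of letters, not a binding site.

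The reference tables cover the sequence at 2 further summits of Irf genes, both shown with GGAA and its reverse, TTCC (UUCC in RNA letters), in capitals. The first is the hairpin of the microRNA gene Mir7671 (chr11:53763597-53763654, minus strand), which holds a site 6.39 kb upstream of Irf1. The second is the 61 bases around a site of Irf5 that lies in the promoter of Tnpo3, a nuclear import receptor gene (chr6:29609888-29609948, minus strand).
Mir7671 hairpin: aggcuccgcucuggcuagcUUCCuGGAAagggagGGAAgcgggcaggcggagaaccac
Tnpo3 promoter stretch: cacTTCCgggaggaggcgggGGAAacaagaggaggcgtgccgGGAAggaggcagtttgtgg

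The Irf1 summit is base 26 of the 58 bases of the hairpin and stands inside a GGAA. In the Tnpo3 stretch the nearest base of a GGAA lies 7 bases from the summit. Across the 560 promoter windows with a site, 108 of 560 summits (19.3%) stood inside a GGAA or TTCC, and these letters cover 6.96% of the bases of the same windows.

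Sites were found around 7 of the 8 genes, in very different numbers and strengths. Irf2 had the most sites, Irf4 the highest scores, and Irf8 none. Inside the span or within 10 kb, 3 of the 8 genes (Irf1, Irf2 and Irf5) had a site, against 27.8% of all protein-coding genes. Within 50 kb it was 6 of 8 against 50.3%, and within 100 kb 7 of 8 against 64.3%. Within 1 kb it was 2 of 8 (Irf2 and Irf5), against 19.4%. These shares rest on 8 genes and were not tested. The 10 kb limit fell between the farthest counted site, 8.72 kb upstream of Irf5, and the first one left out, 10.6 kb upstream of Irf4.

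**Figure D1:**
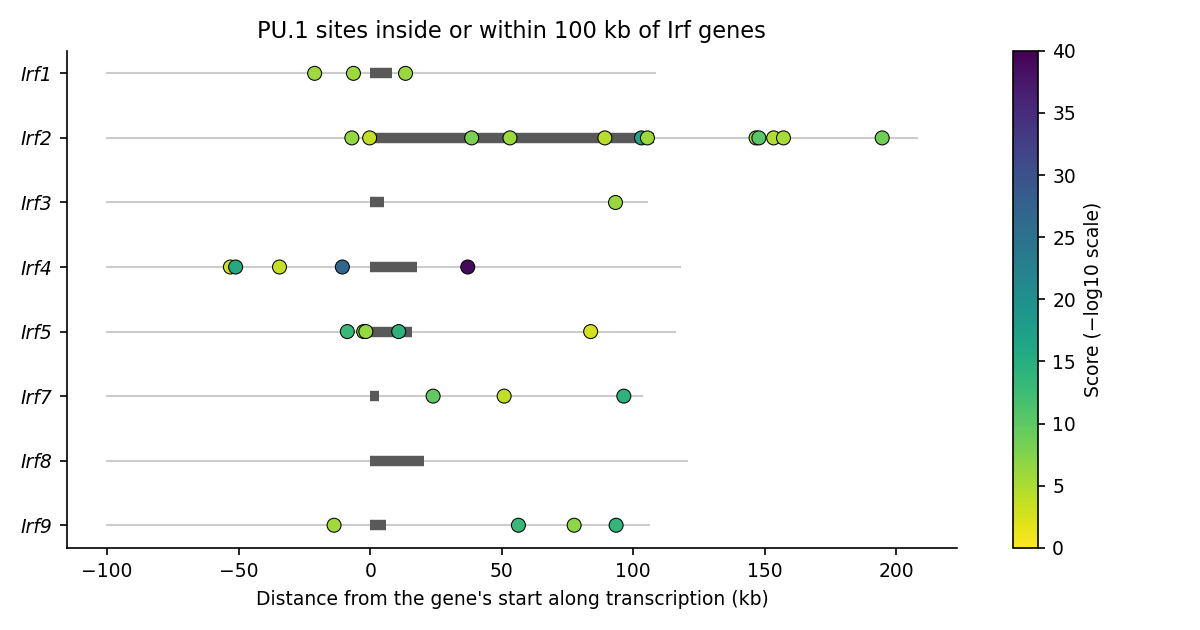
Position of each PU.1 site of the 8 Irf genes, as distance in kb from the gene's start along the direction of transcription. Thick bars are gene spans, thin lines the 100 kb on each side, and circles the sites, coloured by score (−log10 scale); Irf2 has 12 sites, the 2 darkest circles flank Irf4, and the line of Irf8 is empty.

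The 33 sites had a median score of 6.40, with quartiles of 5.60 and 13.0, and all 11106 sites on chromosomes 1 to 19 and X had a median of 8.56, with quartiles of 5.78 and 11.9. The 10285 sites within 100 kb of any protein-coding gene had a median of 8.56 too. A score of at least 10 was reached by 10 of the 33 (30.3%, 95% Wilson interval 17.4 to 47.3, counting error only), against 37.4% of all sites. The interval treats the 33 sites as independent, although 12 of them belong to Irf2, and it measures no spread between libraries. Per gene, 2 of 8 had a site scoring at least 10 inside or within 10 kb (Irf2 and Irf5), against 12.7% of protein-coding genes. Within 100 kb, 5 of 8 had one, against 39.2%; Irf1, Irf3 and Irf8 did not. Of the 33 sites, 6 lay inside an Irf gene (5 in Irf2 and 1 in Irf5), 12 upstream and 15 downstream.

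**Figure D2:**
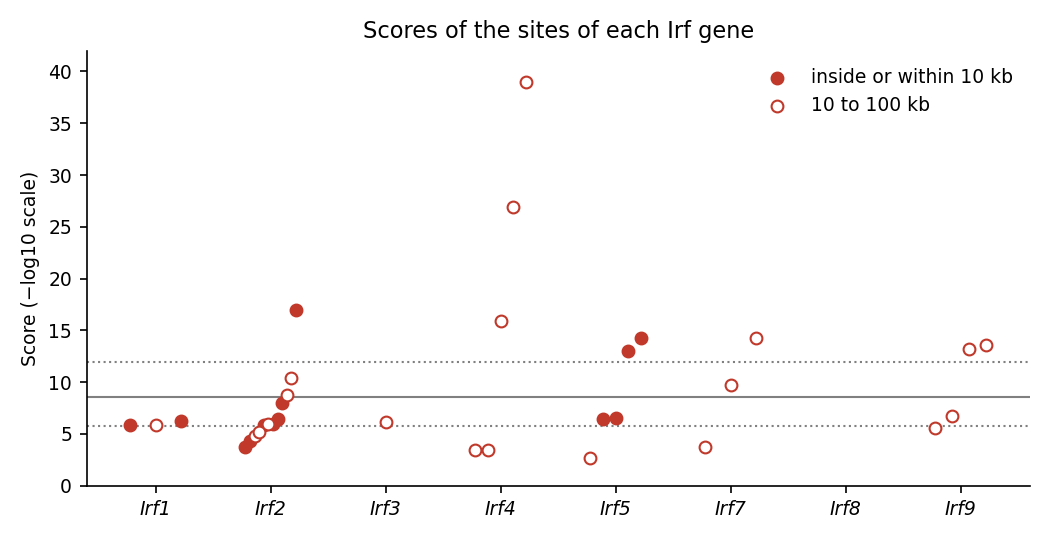
Score (−log10 scale) of every site of each Irf gene, filled circles for sites inside or within 10 kb and open circles for those 10 to 100 kb away; sideways position within a gene only separates the points, by rising score. The solid line is the median of all 11106 sites (8.56) and the dotted lines their quartiles; the Irf4 sites of 39.0 and 26.9 stand above every other one shown.

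Irf4 (chromosome 13, 30749233 to 30766981, plus strand), a partner of PU.1 in lymphoid and dendritic cells, had 5 sites within 100 kb and 3 within 50 kb, none of them inside the gene. The highest, with a score of 39.0, lay 19.3 kb downstream at 30786299, and only 7 sites of the whole list, itself included, scored as high. The next, 26.9, lay 10.6 kb upstream at 30738634, among the top 0.819% of all sites. Irf4 thus stood between a pair of high-scoring sites 47.7 kb apart. A site of score 15.9 was found 51.2 kb upstream, inside Dusp22, a phosphatase gene, and the remaining ones scored 3.41 and 3.48 at 53.2 kb and 34.5 kb upstream. By distance, only the site of 26.9 had Irf4 as its nearest protein-coding gene. The site of 39.0 lay closer to Exoc2, an exocyst subunit gene, at 3.22 kb, and the other sites closer to Dusp22. A site of 39.0 or more within 100 kb was found for 0.111% of protein-coding genes.

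Irf8 (chromosome 8, 120736358 to 120756694, plus strand), the other PU.1 partner of the family, had 0 sites within 100 kb. The nearest site lay 172 kb upstream with a score of 12.0, and on the downstream side the first one came after 545 kb, with a score of 3.24. Known distal enhancers of Irf8 lie on both sides of the gene, within the window examined. No site within 100 kb was the case for 35.7% of protein-coding genes, so an empty window is common. The list, as read here, leaves out places bound alike in PU.1 High and PU.1 Low cells, so an empty window does not show that PU.1 was absent there.

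Irf2 (chromosome 8, 46739745 to 46847458, plus strand), which restrains interferon responses, had 12 sites, 7 of them inside or within 10 kb. Only 0.180% of protein-coding genes had 12 or more sites within 100 kb, and 0.250% had 7 or more within 10 kb. Irf2 is long, at 108 kb against a median of 17.3 kb for protein-coding genes, and 10.2% of them are at least as long. Per 100 kb of window it had 3.90 sites, which 0.749% of protein-coding genes reached, so its count was high for its length as well.

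The Irf2 sites were mostly modest in score. The best, 17.0 at 46842846, lay inside the gene, 4.61 kb from its downstream end, and 2.27 kb before a site of 5.82. Along the gene stood 3 more, scoring 7.97, 5.97 and 4.35 at 38.5, 53.1 and 89.2 kb from the start. Upstream were the promoter site of 3.74 and one of 6.48 at 6.99 kb. Downstream, 4 sites scoring 5.92, 10.4, 4.83 and 5.17 lay together between 38.9 and 49.4 kb beyond the end, and a lone one of 8.78 at 86.9 kb. Only 3 of the 12 scored above the median of all sites. For 10 of the 12 the nearest protein-coding gene was Irf2. For the farthest downstream pair it was Enpp6, a phosphodiesterase gene and the only other protein-coding gene within 100 kb. With noncoding genes counted, lncRNA genes lay nearer to both upstream sites and to those 38.5, 53.1 and 89.2 kb from the start.

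**Figure D3:**
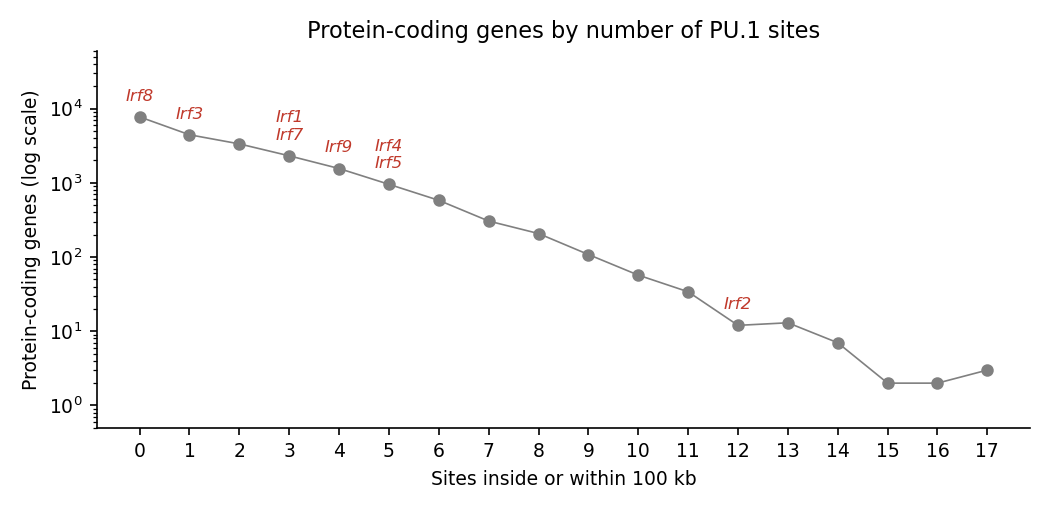
Number of protein-coding genes (log scale) with each number of PU.1 sites inside or within 100 kb; Irf genes are written above the point of their own count. Irf2, with 12 sites, stands far to the right of the other members, which have 0 to 5.

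Irf5 (chromosome 6, 29526130 to 29541869, plus strand) had 4 sites within 10 kb, a number that 1.88% of protein-coding genes reached, and 1 more within 100 kb. The highest, 14.2 at 29536943, lay inside the gene, although the end of Tnpo3 was nearer to it (3.88 kb) than either end of Irf5 (4.93 kb). Upstream were sites of 13.0 at 8.72 kb, 6.57 at 2.50 kb and 6.40 at 1.67 kb, the last 2 of them 0.825 kb apart. These upstream sites also lay near Gm26627, a lncRNA gene, the closest of them 0.248 kb from its end. The site farther away, 68.0 kb downstream in the Tnpo3 promoter shown above, had the lowest score of all 33, 2.69.

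Irf1 (chromosome 11, 53770014 to 53778374, plus strand), a broad activator of interferon genes, had 3 sites of nearly equal score. They stood 21.1 kb upstream (5.91), 6.39 kb upstream in the Mir7671 hairpin (5.82) and 5.05 kb downstream (6.22). All 3 had Irf1 as the nearest protein-coding gene and scored below the median of all sites. A noncoding gene lay nearer to each: Mir7671 to both upstream sites and the lncRNA gene Gm12216 to the downstream one.

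The virus-response factors Irf3, Irf7 and Irf9 had 8 sites in all, none within 10 kb and none nearest to the Irf gene itself. Irf3 (chromosome 7, 44997648 to 45002848, plus strand) had 1, of score 6.11, 88.0 kb downstream in Rcn3, a calcium-binding protein gene. Irf7 (chromosome 7, 141263183 to 141266499, minus strand) had 3, all downstream, scoring 9.71 at 20.6 kb in Phrf1, 3.74 at 47.6 kb in Rassf7 and 14.2 at 93.1 kb in Rnh1, a ribonuclease inhibitor gene. Irf9 (chromosome 14, 55603985 to 55610030, plus strand) had 4. One scored 5.60 and lay 13.8 kb upstream in Psme2, a proteasome activator gene. The other Irf9 sites, downstream, scored 13.2 at 50.3 kb in Mdp1, 6.73 at 71.5 kb in Tinf2 and 13.6 at 87.4 kb near Tgm1.

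Irf3, Irf7 and Irf9 stand among many genes, with 13, 13 and 19 other protein-coding genes within 100 kb, and 7 of their 8 sites lay inside another gene. Irf1, Irf2, Irf4, Irf5 and Irf8 have 1 to 6 such neighbours, and the median of protein-coding genes is 4. Of the 25 sites of these genes, 17 had the Irf gene as the nearest protein-coding gene and 2 lay inside another protein-coding gene. Over all 8 genes the nearest end of a protein-coding gene was that of the Irf gene for 17 of 33 sites (51.5%). Irf2 supplied 10 of the 17, and without Irf2, left out after seeing the data, it was 7 of 21 (33.3%). Of all 38727 pairs of a protein-coding gene and a site within 100 kb, this held for 26.5%. These shares move with how many genes lie nearby, and the part of gene density in them was not tested.

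Among other transcription factor families that act with PU.1 or the IRFs, a site within 10 kb was found at 1 of 5 C/EBP genes and 3 of 6 Stat genes, against 27.8% of protein-coding genes. The C/EBP gene was Cebpg, with a score of 19.1 at a site nearest to Gm45095. The highest scores at the Stat genes were 10.2 inside Stat3, 13.0 at 6.65 kb downstream of Stat4 and 8.64 at 4.40 kb downstream of Stat6, and the Stat4 and Stat6 sites lay nearer to other genes. Cebpd had 0 sites within 100 kb.

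The genes around the IRFs in the interferon system, pooled over the lists below, carried sites within 10 kb in 55 of 91 cases (60.4%). Among all protein-coding genes the share was 27.8%. At a score of at least 10 it was 26 of 91 (28.6%), against 12.7% of protein-coding genes. The pool holds the 6 genes listed as known targets of PU.1-IRF composite elements, all of which met both counts. Listed as known PU.1 targets, these 6 raise both shares by the way they were chosen. Neighbouring genes in the pool could share a site, so the 91 are not separate findings. Longer genes have wider windows, and gene length was not taken into account in these shares. Lists of known immune genes were chosen with earlier results of these data known, and no test was made of them.

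Of 21 sensors, adaptors and kinases upstream of the IRFs, 16 (76.2%) had a site within 10 kb, against 27.8% of protein-coding genes. A site scoring at least 10 was found at 8 (38.1%), against 12.7%. Traf3, an adaptor of interferon induction, had one of 17.0 at 6.20 kb upstream. Chuk, a kinase gene of the NF-kB and Irf7 pathways, had its highest, 14.3, at 5.85 kb downstream and nearest to Erlin1, and Tnfaip3, a feedback inhibitor, one of 14.2 inside the gene. Trim21, a cytosolic antibody receptor gene, had one of 13.4. Irak4, a Toll-like receptor kinase gene, had 0 sites within 100 kb.

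Of 13 interferon receptor, JAK-STAT and feedback genes, 8 (61.5%) had a site within 10 kb, against 27.8% of protein-coding genes. Within 50 kb all 13 had one, against 50.3%. Some of these genes lie close together on chromosome 16 and share sites, so the 13 are not separate findings. A score of at least 10 within 10 kb was reached at 2 of the 13 (15.4%), close to the 12.7% of protein-coding genes. These were Usp18, which limits receptor signalling (15.4, inside the gene), and Socs3 (13.0), a feedback inhibitor gene. The receptor kinase genes Jak1, with 4 sites and a highest score of 8.46 (inside the gene but nearest to the end of Raver2), and Tyk2, with 1 site of 7.9997 inside the gene, came next. Of 34 interferon-stimulated genes, 16 (47.1%) had a site within 10 kb, against 27.8% of protein-coding genes, and neighbouring genes could share a site. At a score of at least 10 it was 4 of 34 (11.8%), no more than the 12.7% of protein-coding genes. These were the immunoproteasome gene Psmb9 (17.0), the MHC class II regulator Ciita (14.2), Oas3 (13.9), an antiviral enzyme gene whose site lay nearer to Oas1e, and Ifi204 (13.0), a DNA sensor gene whose site lay nearer to Ifi207. Cmpk2 and Herc6 had 0 sites within 100 kb.

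**Figure D4:**
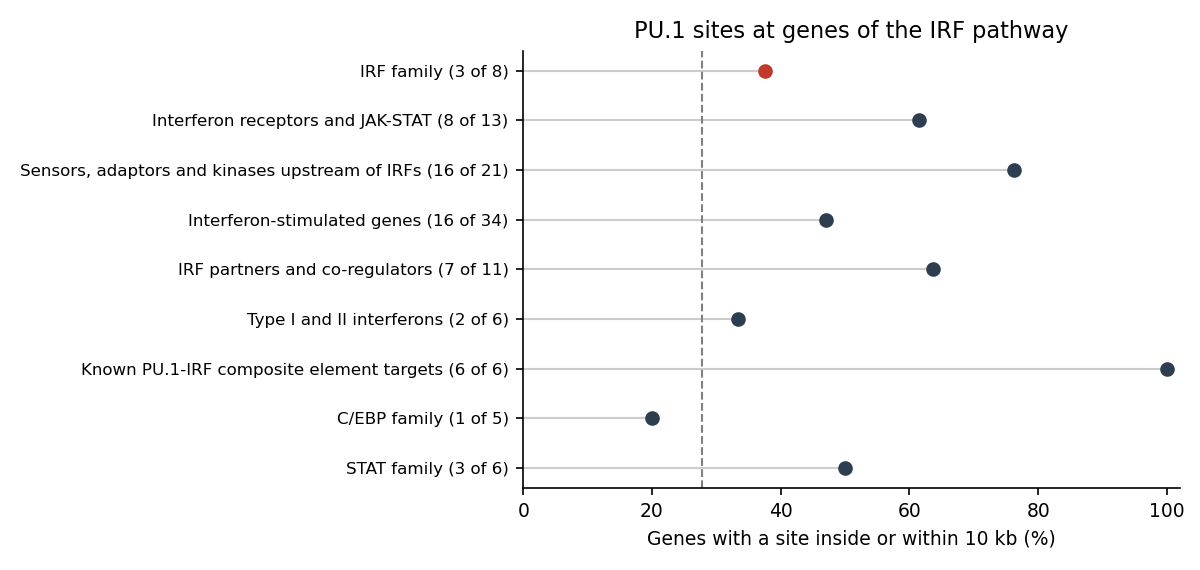
Percentage of the genes of each list with a PU.1 site inside or within 10 kb, the 8 IRF genes in red; the dashed line is the share of all protein-coding genes, 27.8%. The IRF genes themselves (3 of 8) lie below the sensors, adaptors and kinases upstream of them (16 of 21), a difference that was not tested. The composite element targets (6 of 6) were listed as known PU.1 targets, so their share is not comparable with the others.

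Of 11 genes of IRF partners and co-regulators, 7 (63.6%) had a site within 10 kb, against 27.8% of protein-coding genes. A site scoring at least 10 was found at 4 (36.4%), against 12.7%. Batf (16.3) and Batf3 (15.6), AP-1 factors that pair with Irf4 and Irf8, led, followed by the Ikaros family genes Ikzf1 (14.2) and Ikzf3 (14.0). Of the 6 interferon genes, 2 (33.3%) had a site within 10 kb, close to the 27.8% of protein-coding genes. The same 2 genes had one scoring at least 10, against 12.7%, a share that rests on 6 genes. They were Ifnk (14.2) and Ifna2 (13.1), whose sites both lay nearer to another gene, and Ifne and Ifng had 0 within 100 kb. All 6 genes listed as known targets of PU.1-IRF composite elements had a site within 10 kb, against 27.8% of protein-coding genes. All 6 had one scoring at least 10, against 12.7%. Since they were listed as known PU.1 targets, sites there were likely beforehand, and these counts cannot serve as a test. The cytokine gene Il12b (17.9), the tumour suppressor gene Nf1 (14.5), the cytokine gene Il18 (13.2) and Cybb (13.1), an NADPH oxidase subunit gene, led.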

How the data were processed

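PU.1 ChIP-seq was performed on 5 libraries (3 PU.1 High, 2 PU.1 Low). The build was mm10 and the tools were MACS2 and CASAVA 1.8.2, per the submitters' processing notes. The sources used here do not name the aligner, filters, settings or how replicates were combined. The deposited list gives each summit a score, on a −log10 scale, made by the authors' peak caller. Each score is the site's own and was used within this list alone.

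Positions are 1-based. Genes, strands and promoter windows came from RefSeq tables of GRCm38.p6. Of the 11111 summits, 5 outside chromosomes 1 to 19 and X were left out. Summits inside each gene span or within 1, 10, 50 and 100 kb were counted for all protein-coding genes with Python 3.11.15, pandas 2.3.3, numpy 2.4.6 and scipy 1.17.1. The counting was tested on simulated data. Gene symbols were matched directly or by synonym; 2 list entries (Mx1, Mx2) were not matched and not used, and some genes of the lists are not reported here.

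The members and lists were chosen with earlier results of these data known. All members and their sites are named and, per list, the 4 genes with the highest score within 10 kb and the first 2 by name with no site within 100 kb. Alternatives were other windows, score minimums of 5 and 10, nearest gene, distance to gene ends and merging of summits within 1 kb.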

Additional observations from a re-analysis of the deposited data

How the results depend on the processing

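The count of Irf genes with a site was 3 of 8 at 10 kb, 6 with a 50 kb window and 7 with a 100 kb window, and stayed at 2 or 3 under the other 6 alternatives. The 33 sites within 100 kb became 10 at a score of at least 10. They became 17 when each site went only to the protein-coding gene with the nearest end. The median score of the 33 sites, 6.40, stayed between 6.09 and 7.35. Without the Irf4 sites, an alternative chosen after seeing the data, it was 6.31. The 55 interferon system genes with a site within 10 kb became 26 of 91 (28.6%) at a score of at least 10. Both counts include the 6 genes listed as known PU.1-IRF targets. The share of protein-coding genes was 12.7%, and this alternative was also chosen after seeing the data. No paired analysis was possible because the list holds no values per library, and leaving out single replicates was likewise not possible. Read depth limits which sites were listed and is unknown. Exon, intron and the sequence at most sites were not analysed here.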
